A study of Homo sapiens with 4 samples.

Results

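The E2F genes encode the transcription factors that time the expression of DNA replication genes, and the retinoblastoma gene family encodes the pocket proteins that hold them in check. The set described here holds 10 genes out of 24305 with a single symbol in the authors' gene-level sheet. They were taken by symbol, and the classes below follow textbook roles, but the family was chosen with earlier results of these data known. E2F1, E2F2 and E2F3 are the activator E2Fs, E2F4 and E2F5 the repressor E2Fs, and E2F7 and E2F8 the atypical E2Fs. RB1, RBL1 and RBL2 encode the pocket proteins pRB, p107 and p130. Each had 1 transcript cluster, the array's unit for a gene, whose number is given where the gene is described.

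Expression was measured in MDA-MB231, an established line of a human breast carcinoma without hormone receptors, after 3 days in 1 of 2 media prepared from concentrated DMEM and 9 parts of hypotonic saline. For the treated group that saline had first spent 30 minutes in the dc DEP EMF of the BEFE unit, and for the control group it had not, so both groups grew in medium made with hypotonic saline. Each medium has a single gene-level column and a single exon-level column of log2 signal, and the labels do not say whether a column is a single array, pooled RNA or an average of the 5 biological replicates named in the RNA quality check. There is therefore no replicate error, no test was possible, and every difference below compares these columns of values.

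All differences are log2 signal in treated medium minus log2 signal in control medium, so 1 unit is a 2-fold difference. A gene was counted as measured when the mean of its signals reached 7.17, which is the median such mean among probe sets with 1 symbol and serves as the floor here. This held for 12353 genes and for all 10 members. Median signal over all gene-level probe sets was 6.33 in control and 6.31 in treated medium. The line's expected genes VIM, CD44, CAV1 and EGFR had signals from 9.60 to 11.69 over both media. Of the 5 genes expected to be low, ESR1, PGR and CDH1 were under the floor, ERBB2 had signals of 9.05 and 8.41, and EPCAM of 7.70 and 7.26. Of 6 markers of leukocytes, endothelium and fibroblasts, only COL1A1, at 7.43 and 7.27, was above the floor, while PTPRC was at 3.81 in both media and PECAM1 had no row with a single symbol. The mean of the fibroblast marker PDGFRB was under the floor, at 6.59 in control against 7.36 in treated medium. In bulk RNA, fewer cells in a cell cycle phase and less transcript per cell cannot be told apart.

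In cycling cells, cyclin D and cyclin E kinases phosphorylate the pocket proteins, which then release E2F. Free activator E2Fs, bound to a DP partner, switch on genes of the G1/S transition, E2F1 and E2F2 among them. In resting cells, p130 or p107 joins E2F4 or E2F5, a DP partner and the MuvB core in the DREAM complex, which keeps cell cycle genes off. The atypical E2F7 and E2F8 bind the same DNA word without a DP partner or a pocket protein, repress many of the same genes late in S phase, and are themselves made from E2F target genes.

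The DNA word that E2F proteins read is shown first because several members are themselves E2F target genes. The stretches below are the 70 bases just before the annotated gene start, from RefSeq windows on GRCh38.p14, each read along the gene's own strand. Capitals mark the words TTTCCCGC, TTTCCCGG, TTTCGCGC, TTTCGCGG, TTTGCCGC, TTTGCCGG, TTTGGCGC and TTTGGCGG, searched on both strands in the 250 bases before the start, so that a word in capitals that ends in AAA is a match on the other strand.
E2F1: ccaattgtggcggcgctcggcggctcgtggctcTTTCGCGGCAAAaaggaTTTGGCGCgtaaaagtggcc
E2F2: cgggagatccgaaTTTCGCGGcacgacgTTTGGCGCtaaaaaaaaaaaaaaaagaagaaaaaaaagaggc
E2F3: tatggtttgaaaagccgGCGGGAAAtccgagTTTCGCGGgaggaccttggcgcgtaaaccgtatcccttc
RBL1: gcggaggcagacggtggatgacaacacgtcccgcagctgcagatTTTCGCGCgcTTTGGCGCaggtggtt
E2F7: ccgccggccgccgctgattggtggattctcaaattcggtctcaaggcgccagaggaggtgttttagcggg

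E2F1 lies at chr20:33686386-33686455 on the minus strand, E2F2 at chr1:23531234-23531303 on the minus strand and E2F3 at chr6:20401809-20401878 on the plus strand. RBL1 lies at chr20:37095998-37096067 and E2F7 at chr12:77065570-77065639, both on the minus strand. E2F1 held 3 matches, of which TTTCGCGG and GCGGCAAA overlap and TTTGGCGC begins 20 bases before the start. E2F2 and E2F3 held 2 matches each, and RBL1 held TTTCGCGC at 26 and TTTGGCGC at 16 bases before the start. E2F7, E2F4 and RBL2 held 0 matches in their 250 bases, and for E2F5, E2F8 and RB1 no window at the gene start was matched in the table. Of 24885 RefSeq windows at a gene start, 5.22% held a match and 0.281% held at least 2. Among the 7665 windows of genes above the floor, which include those of the 7 members with a window, the shares were 8.71% and 0.574%. A match describes letters in a window and not binding, and the words were picked with these promoters in view.

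Members of the activator, atypical and pocket protein classes differed in size or direction within their class. All 3 activators were below 0 and both repressors above 0, while 50.6% of all genes above the floor were below 0. E2F3 at -0.06 and E2F4 at 0.18 lay within the quartiles of all genes above the floor, -0.26 and 0.25. E2F8, E2F1 and E2F2 were at least 2-fold lower in treated medium, and E2F7 was at least 2-fold higher. E2F3, E2F4, RB1 and RBL2 lay within 1.14-fold of their control signal. The count of 3 of 10 members at least 2-fold lower stands beside 3.46% of all genes above the floor, and the count of 1 of 10 higher stands beside 3.22%. The lower count includes E2F2, which was 1.96-fold lower against the floor and also short of 2-fold by its exon-level median, and without it the count is 2 of 10. The authors' deposited table of ratios gave control over treated values of 4.93 for E2F8, 3.05 for E2F1, 2.24 for E2F2 and 0.470 for E2F7.

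**Figure D1:**
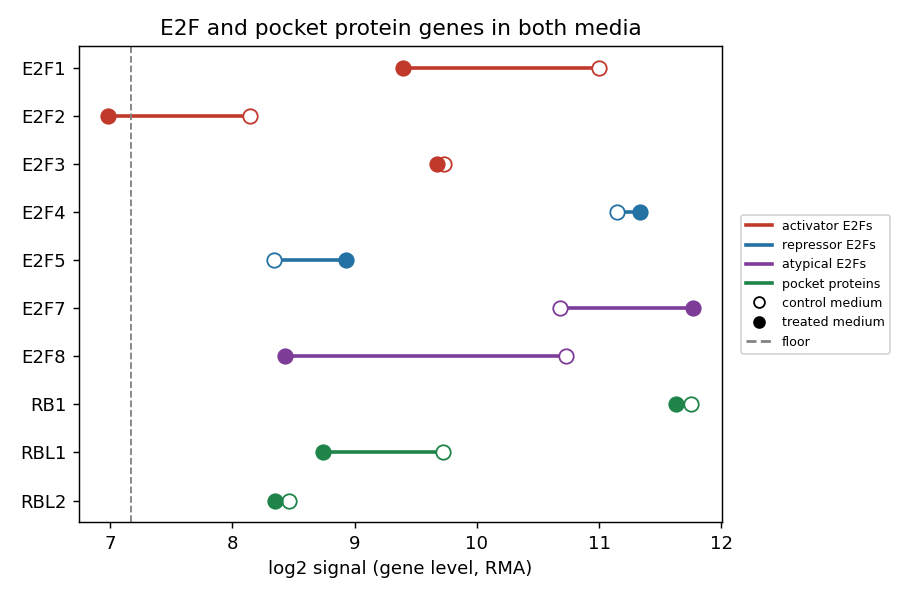
Gene-level log2 signal (x axis) of the 10 genes (rows) in control medium (open circles) and treated medium (filled circles), coloured by class, with the floor of 7.17 as a dashed line. E2F1, E2F2, E2F8 and RBL1 sit to the left in treated medium, E2F5 and E2F7 to the right, and the treated signal of E2F2 is under the floor.

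Among the activators, E2F1 (transcript cluster 16918445), the E2F most studied for both S phase entry and cell death, gave log2 signals of 11.00 (control) and 9.39 (treated). The difference of -1.61, a 3.05-fold lower signal, was the 113th lowest of the 12353 genes above the floor. E2F2 (cluster 16683358), which acts in proliferating and blood-forming cells, gave log2 signals of 8.14 (control) and 6.98 (treated), a difference of -1.16. Since its treated signal was under the floor, the fold of 2.24 is uncertain, and set against the floor E2F2 was 1.96-fold lower. E2F3 (cluster 17005234), the activator with the broadest role in proliferation, had signals of 9.73 and 9.67, a difference of -0.06. The difference of E2F3 lay 1.55 above that of E2F1 and 1.10 above that of E2F2 on the log2 scale. All 3 activator promoters carried at least 2 of the words shown above. The activator median was -1.16.

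Both repressors were above 0, and neither reached 2-fold. E2F4 (cluster 16820041), the main E2F of resting cells, gave log2 signals of 11.15 (control) and 11.33 (treated), a difference of 0.18. E2F5 (cluster 17070408), its closest relative, had signals of 8.34 and 8.93, a difference of 0.59. Of all genes above the floor, 90.6% had a lower difference than E2F5 and 70.2% a lower difference than E2F4. The repressor median was 0.39, against a median of -0.01 and quartiles of -0.26 and 0.25 over all genes above the floor.

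The atypical pair went opposite ways. E2F7 (cluster 16767851), a repressor of E2F1 and of G1/S genes, gave log2 signals of 10.68 (control) and 11.77 (treated), a difference of 1.09 or 2.13-fold higher. Of all genes above the floor, 97.4% had a lower difference. E2F8 (cluster 16736638), which shares its repressor role and forms dimers with E2F7, had signals of 10.73 and 8.43, a difference of -2.30 or 4.93-fold lower, the 17th lowest of 12353 genes. The differences of E2F7 and E2F8 lay 3.39 apart on the log2 scale, a 10.5-fold ratio of their folds and the widest gap between any pair of members. With 2 genes on opposite sides, the class median of -0.61 describes neither.

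**Figure D2:**
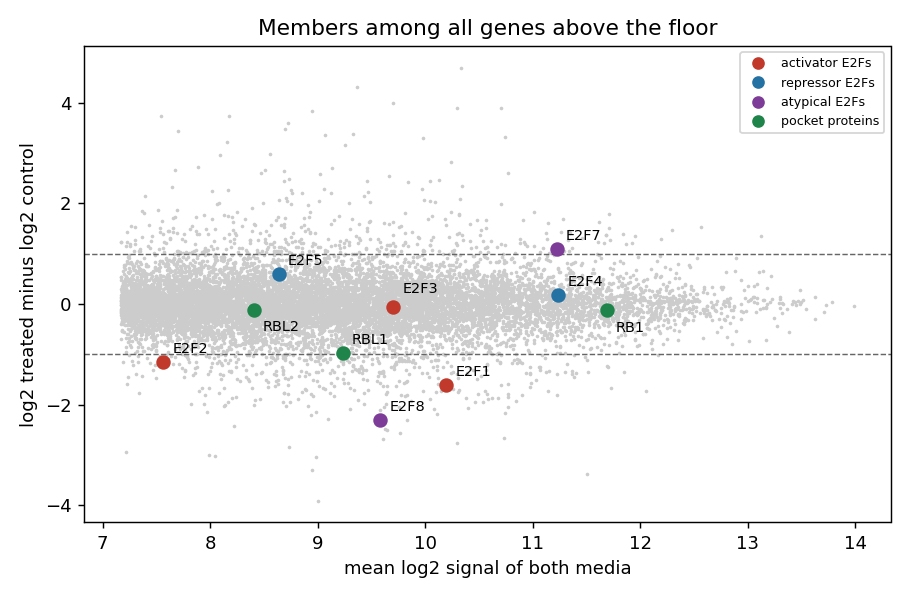
Difference (treated minus control, log2, y axis) against mean log2 signal of both media (x axis) for the 12353 genes above the floor (grey points), with the 10 genes coloured by class and dashed lines at 2-fold. E2F7 lies above the upper line at 1.09, E2F1, E2F2 and E2F8 lie below the lower line, and RBL1 lies just inside it at -0.98.

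Of the pocket proteins, RBL1 stood apart from RB1 and RBL2. RBL1 (cluster 16919044) encodes p107, the pocket protein made mainly in cycling cells and itself an E2F target, and gave log2 signals of 9.73 (control) and 8.74 (treated). Its difference of -0.98, a 1.98-fold lower signal, was just short of 2-fold and the 443rd lowest of 12353 genes. RB1 (cluster 16774690), the tumour suppressor gene whose protein binds the activator E2Fs, had signals of 11.75 and 11.63, a difference of -0.12. RBL2 (cluster 16818980), whose protein p130 prevails in resting cells, had signals of 8.46 and 8.35, a difference of -0.11. RBL2 thus lay 0.87 above RBL1 on the log2 scale. All 3 pocket protein genes were below 0, as were 50.6% of all genes above the floor.

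Exon-level probe sets, which read separate stretches of each transcript, showed whether a gene's difference ran along its length. The levels partly share probes, and the 5391 probe sets in both had identical values, so exon-level probe sets are no replicates. The files do not pair them with genes, and each was assigned to the gene-level cluster whose number comes just before its own. Over 26802 clusters with at least 3 such probe sets, their median correlated with the gene-level value at r = 0.981 for control signal and 0.964 for the difference, and with the value of the next cluster at 0.219 and 0.042. Clusters are not independent replicates, and these values only describe the assignment. Counts of probe sets past 2-fold below are over those above an exon-level floor of 7.34, where 4.85% of 174126 probe sets were at least 2-fold lower, 4.65% at least 2-fold higher and 49.9% below 0.

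The opposite differences of E2F7 and E2F8 ran through nearly the whole of each gene. All 19 probe sets of E2F7 were above 0, from 0.11 to 1.77, with a median of 1.01, and 10 of the 17 that passed the floor were at least 2-fold higher. All 16 probe sets of E2F8 were below 0, from -3.11 to -0.36, with a median of -2.22, and 13 of the 15 above the floor were at least 2-fold lower. Since the signs were opposite throughout, the ranges of the pair could not overlap, which adds nothing to these counts. RBL1 had all 19 probe sets below 0, with quartiles of -1.15 and -0.90, and 9 of 18 above the floor at least 2-fold lower.

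E2F1 and E2F2 were below 0 in all but 1 probe set each. Of the 9 probe sets of E2F1, 8 were below 0, among them 5 lower by 2-fold or more, with a median of -1.33. A single one stood at 0.10, and it had the strongest signal of the 9, at 12.20 (control) and 12.29 (treated). Of the 10 probe sets of E2F2, 9 were below 0, and the range ran from -4.16, at a probe set under the exon-level floor, to 0.09. The 6 above that floor ran from -1.92 to 0.09, and 2 of these were at least 2-fold lower. The rest of the 6 stood at -0.75, -0.42, -0.32 and 0.09. The median of -0.96 over all 10, which includes those under the floor, was short of 2-fold. For E2F5, 10 of the 11 probe sets above the floor had values over 0, and 2 of them passed 2-fold. E2F3, E2F4 and RB1 had no probe set past 2-fold in either direction, with medians of -0.10, 0.18 and -0.12. RBL2 had 1 of 16 above the floor at least 2-fold lower, with a median of -0.11.

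**Figure D3:**
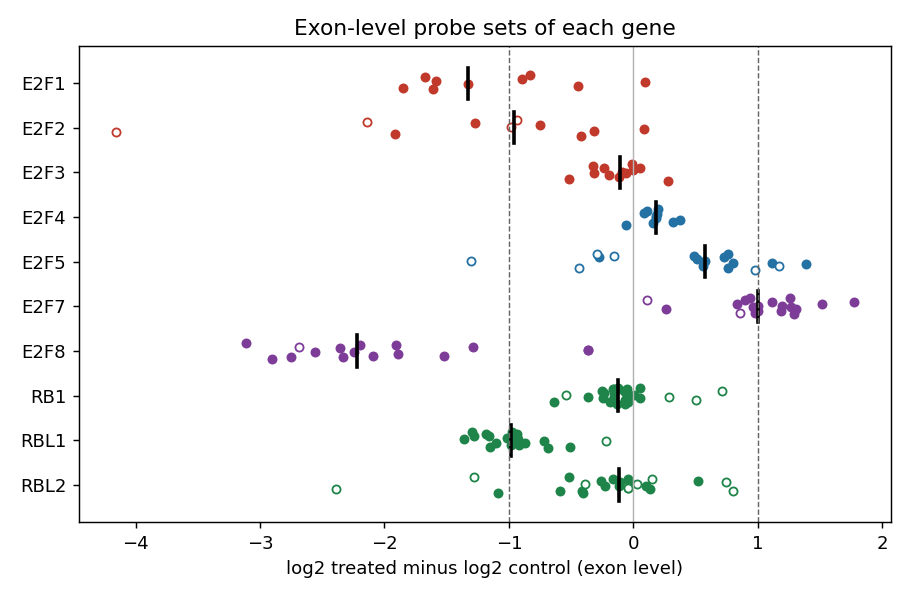
Difference of each exon-level probe set (treated minus control, log2, x axis) for the 10 genes (rows), with filled circles above the exon-level floor of 7.34, open circles below it, a black bar at the gene's median and dashed lines at 2-fold. All probe sets of E2F7 lie above 0 and all of E2F8 and RBL1 below 0, while those of E2F2 above the floor spread from -1.92 to 0.09 and an open circle lies at -4.16.

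Among the genes above the floor that encode DP partners, MuvB and its partners, or the E2F6 complex, MYBL2 and FOXM1 were the only ones past 2-fold, both lower. Of the DP partner genes, TFDP1 gave log2 signals of 9.76 (control) and 8.88 (treated), TFDP2 had 9.80 and 9.95, and TFDP3 was under the floor. The 5 MuvB core genes all lay within 2-fold, from LIN37 at 0.77 through LIN54 (0.13), LIN52 (-0.44) and LIN9 (-0.48) to RBBP4 at -0.70. MYBL2, the B-MYB gene whose protein takes over MuvB in cycling cells, had signals of 11.51 and 9.57, 3.83-fold lower. FOXM1, which joins that complex for mitotic genes, had signals of 11.07 and 9.70, 2.58-fold lower. E2F6, a repressor that binds no pocket protein, had signals of 8.33 and 7.99. In its polycomb complex 0 of 9 genes passed 2-fold, with a median of 0.03. That count is near the shares over all genes above the floor, 3.46% lower and 3.22% higher. The differences of the other complex genes were -0.63 for CBX3, -0.38 for L3MBTL2, -0.18 for PCGF6, 0.03 for RNF2, 0.14 for MAX, 0.38 for RYBP, 0.39 for MGA and 0.73 for RING1.

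Upstream of the pocket proteins, the cyclin D arm and the cyclin E and A arm had differences of unlike size. CDK4 (0.05), CDK6 (0.04) and CCND1 (-0.16), which start pocket protein phosphorylation, lay close to 0. CCND3 had signals of 7.76 and 7.15, a difference of -0.60 with the treated signal under the floor, and CCND2 was under the floor. CCNE2, a cyclin E gene and E2F target, gave log2 signals of 10.60 (control) and 7.29 (treated), a difference of -3.31. Its treated signal was near the floor, which limits the fold. CCNE1 had signals of 9.62 and 8.53. CCNA2, the S phase cyclin, had signals of 11.82 and 9.67, and its kinase CDK2 had 11.43 and 10.31. In all, 4 of the 8 measured genes were lower by 2-fold or more and 0 higher. Over all genes above the floor the shares were 3.46% and 3.22%.

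Of 5 CDK inhibitor genes above the floor, 1 was at least 2-fold lower, beside 3.46% of all genes above the floor. That gene, CDKN2C, encodes an inhibitor of CDK4 and CDK6 and is an E2F target, and it had signals of 9.05 and 6.89. In treated medium it did not reach the floor, and taking the floor in its place gives 3.68-fold lower. CDKN1A (0.18), CDKN1B (0.09) and CDKN1C (0.15) lay close to 0, CDKN2D had a difference of -0.42, and CDKN2A and CDKN2B were under the floor in both media. Genes that turn E2F proteins or their regulators over were all below 0, as were 50.6% of all genes above the floor. Of the 4 turnover genes, 3 were at least 2-fold lower, beside the same 3.46%. FBXO5, an inhibitor of the anaphase-promoting complex, was 3.96-fold lower, SKP2, a ubiquitin ligase subunit that removes p27, 3.51-fold, and CCNF, whose protein cyclin F marks E2Fs for degradation, 2.81-fold. FZR1, an activator of the anaphase-promoting complex, had a difference of -0.38.

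Co-repressors that pocket proteins recruit lay within 2-fold, with 0 of 9 past it and a median of -0.10. This count is near the shares over all genes above the floor, 3.46% lower and 3.22% higher. SUV39H1, a histone methyltransferase gene, had signals of 8.89 and 7.94, and RBBP7, a histone-binding protein gene, 10.98 and 10.13, the lowest differences of the list at -0.95 and -0.85. HDAC1, the main deacetylase bound by pRB, had a difference of -0.44, HDAC3 of -0.27, SMARCA4 of -0.10 and SIN3A of -0.01. ARID4A at 0.35, KDM5A at 0.39 and SMARCA2 at 0.52 were above 0, and HDAC2 was under the floor.

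Targets of the pathway had lower signals in treated medium in both target lists. Of 30 G1/S genes known as E2F targets, all 30 were below 0, 21 of them lower by 2-fold or more and 0 higher, with a median of -1.12. TYMS, the thymidylate synthase gene, gave log2 signals of 11.67 (control) and 8.91 (treated), and PCNA, the replication clamp gene, 11.80 and 9.75. TK1, the thymidine kinase gene, had a difference of -1.87 and ORC1, which marks replication origins, of -1.79. Of 20 G2/M genes repressed by DREAM in resting cells, all 20 were below 0, with 19 lower by 2-fold or more, with a median of -1.55. KIF20A had signals of 12.06 and 9.40, CENPE 10.63 and 8.59, BIRC5 10.63 and 8.65, and HMMR 9.41 and 7.52. TPX2, the exception to the count and chosen after its value was seen, was at -0.56. Beside the counts of both lists stand the shares for the 12353 measured genes: 3.46% past 2-fold lower, 3.22% past 2-fold higher and 50.6% below 0. The lower state of cell cycle genes in these columns was known when the lists were made, so these counts are a description.

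Genes of cell death known as E2F1 targets are given singly, since their list was shortened, and no count or median is drawn from them. APAF1, the apoptosome scaffold gene, had signals of 9.11 and 7.92, and TP73, a p53 family gene, 8.09 and 6.88. With the floor in place of its treated signal TP73 was 1.89-fold lower. BCL2L11 lay within 2-fold at -0.24, and PMAIP1 and BBC3, which like it encode BH3-only death proteins, were above 0 at 0.62 and 0.48.

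**Figure D4:**
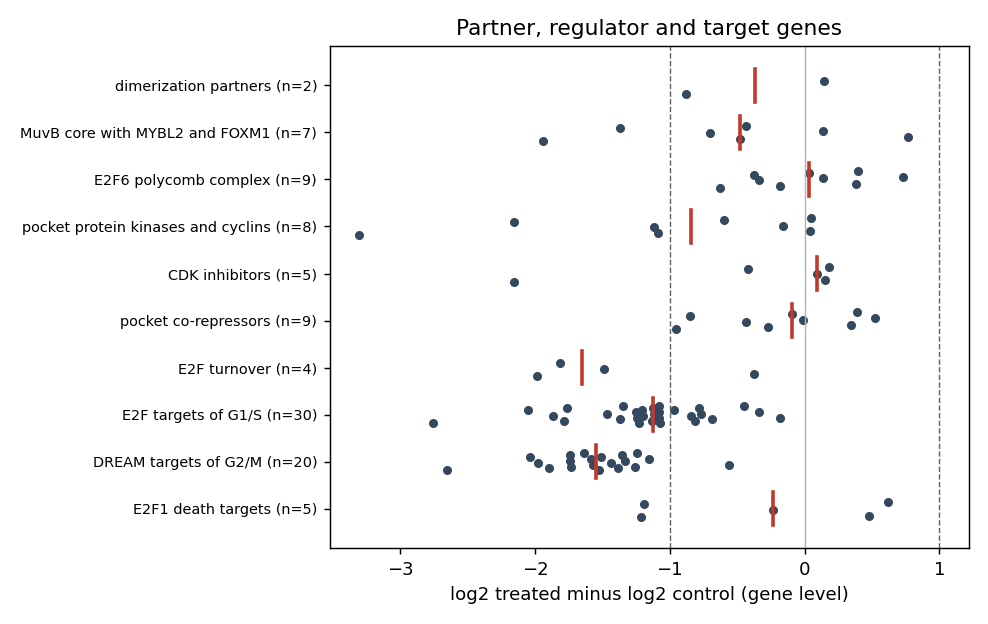
Difference (treated minus control, log2, x axis) of each gene above the floor in the lists of partners, regulators and targets (rows, with the number of genes), with a red bar at the list median and dashed lines at 2-fold. The bar of the shortened list of death targets is not read here. All 30 G1/S targets and all 20 G2/M targets lie below 0, while the polycomb complex of E2F6, the co-repressors and, apart from CDKN2C at -2.15, the CDK inhibitors lie within 2-fold.

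The E2F word shown in the promoters was also counted over all genes above the floor with a window at the gene start, the 7 members with a window included. It was present in the window of 15.1% of the 284 genes at least 2-fold lower and 9.50% of the 242 at least 2-fold higher. Of the 7139 genes within 2-fold, 8.43% held it. The lower genes include E2F1 and E2F2, and the words were picked with their promoters in view. Of the G1/S targets with a window, 12 of 22 held it, and of the G2/M targets 1 of 15. Many G1/S targets were first recognised through this word, so its share among them is not independent of the list. E2F3 held 2 words with a difference near 0, and most of the 284 genes at least 2-fold lower held none in the 250 bases searched. Whether the word bears on any difference was not tested.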

How the data were processed

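The deposited gene-level (53617 probe sets) and exon-level (352859 probe sets) tables hold log2 signal. The submitters' processing notes name RMA and Affymetrix Expression Console, with no version, and the genome build is not given in the sources used here. Quantile normalization within RMA would hide any difference common to most genes. The authors' deposited sheet adds gene symbols, linear intensity values per medium and their control over treated ratio. Its intensities equalled the antilog of the gene-level values within 5.03e-05 on the log2 scale, and the 5391 probe sets in both tables had identical values, so the levels are no replicates.

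Rows with 1 symbol were used (25937, against 3221 with several and 24459 with none). For the 906 symbols with several clusters, the cluster with the highest mean signal stood for the gene. With 1 sample per group no test was run, and the number of arrays limits the precision. All 10 members were named, every gene of the partner and regulator lists of up to 10, and in longer lists the 4 furthest from 0. Members and lists were chosen with earlier results of these data known. The list of cell death targets was shortened after its values were seen, though not by those values, and the genes taken out are not reported here. Promoter words came from RefSeq windows matched by symbol for 7 of the 10 members. The alternative scalings were tested on simulated data, and the alternative floors and summaries were not. All were run in Python 3.11.15 with pandas 2.3.3 and statsmodels 0.14.6.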

Additional observations from a re-analysis of the deposited data

How the results depend on the processing

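Median centring, quantile normalization and a lowess correction kept each member on its side of 2-fold and in its direction. The deposited values were already normalized, with a median difference of -0.02 over all probe sets, so these scalings had little to change. Averaging the clusters of a symbol could not change any member, since each had 1 cluster. Over the main values, these scalings and the exon-level medians, E2F8 ranged from -2.30 to -2.22 and E2F1 from -1.61 to -1.33. E2F7 ranged from 1.01 to 1.11 and RBL1 from -0.98 to -0.95. The exon-level medians rest partly on the same probes as the gene level and are no independent check. For RBL1, RB1 and RBL2 they equalled the gene-level difference. With exon-level medians E2F2, and with it the activator median, was -0.96, short of 2-fold. The cause was not tested. With a fold of 1.5 in place of 2, 2 members were higher, E2F5 having joined E2F7, and 4 were lower with RBL1, while 1203 genes were lower and 1169 higher in place of 428 and 398. When the floor was raised to the 75th percentile (8.93), fewer genes were counted, 265 lower and 196 higher, 7 members were left, and the median of the pocket protein kinases and cyclins was -1.09 in place of -0.85. No paired analysis was possible because each group has 1 sample, and without replicates no spread between cultures could be set beside any value. Signals near the floor, such as E2F2 and CDKN2C in treated medium, limit their folds.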
